A study of Mus musculus with 12 samples.

Results

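The genes described here are 10 members of the signalling system through which antigen-presenting cells raise or restrain T cell activation: Cd274, Pdcd1lg2, Cd80, Cd86, Cd40, Icosl, Cd276, Havcr2, Lgals9 and Tnfsf9. They were taken by name from the array annotation, which held all 10 of them on 14 probes, and all 10 were among the 20370 genes and transcript features that passed the filter on dim probes. The samples were 6 YFP+ and 6 YFP- preparations of macrophages sorted from mouse pancreatic tumours, each hybridised to 1 Agilent array. All came from female C57/B6 animals aged 8 to 10 weeks that had received tumour implants, and cells were sorted straight into lysis buffer. The genotype is labelled as not provided. The design text of the series names mice with FLT3-CRE and LSL-YFP, in which YFP would mark cells descended from progenitors that expressed the recombinase, besides wild-type and KPC mice. That YFP has this meaning in these 12 samples rests on that text alone. The labels give 6 tumour numbers, each once in YFP+ and once in YFP-, and do not say whether equal numbers are 1 animal. Within each group the 6 numbers differ, so a p-value here rests on the spread between preparations of different tumour number. How much of that spread is technical was not tested.

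A T cell needs a second signal besides antigen. CD80 and CD86 on the presenting cell give it through CD28 and withhold it through CTLA-4, and ICOSL and 4-1BB ligand (Tnfsf9) add to it through ICOS and 4-1BB. PD-L1 (Cd274) and PD-L2 (Pdcd1lg2) bind PD-1 and restrain the response, B7-H3 (Cd276) is a B7 family protein whose receptor is not settled, and galectin-9 (Lgals9) is a ligand of TIM-3 (Havcr2). CD40 and TIM-3 are themselves receptors on the macrophage side, so the set is not made of ligands alone: CD40 takes the T cell's CD40 ligand and switches on NF-kB, which raises CD80 and CD86, and TIM-3 is an inhibitory receptor of T cells and of myeloid cells. Tumour macrophages are known for carrying PD-L1 and other restraining ligands.

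What each value measures is set by where its probe lies, so the probes of the genes with a pair of them, and those holding the letters AATAAA, are shown first. Positions are in mm9, the build of the array annotation per the file headers, the strand is the transcript's, and only 30 bases of each 60-base probe are given, except the upstream Cd80 probe, which is whole. Cd80 was measured at 2 places of transcript NM_009855, starting at base 872 (chr16:38479343-38479402, + strand) and at base 1457 (chr16:38486772-38486831, + strand).
Cd80 from base 872: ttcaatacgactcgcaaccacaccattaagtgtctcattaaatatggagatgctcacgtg
Cd80 from base 1457: aaaggagaggtgcctagtcttactgcaact
The Pdcd1lg2 probes overlap by 57 bases on the + strand (chr19:29545470-29545529 and chr19:29545473-29545532), of which 55 match. Counted from the 5′ end of the probe designed on AF142780, the probe designed on NM_021396 differs by C53T and G58A, shown in capitals.
Pdcd1lg2 on AF142780: tggaagcatttaagcaacacgtCaagtGcc
Pdcd1lg2 on NM_021396: tggaagcatttaagcaacacgtTaagtAcc
In 5 of the 14 probes the letters AATAAA, the usual polyadenylation signal, occur on the transcript's strand (35.7%, against 12.6% of all 39429 probes). They are shown in capitals below, for 4 genes. Whether these probes lie at a transcript's end was not checked.
Cd86 on NM_019388 (chr16:36603961-36604020, - strand): agagtggatttcAATAAAgttttcttgaat
Cd86 on XR_384517 (chr16:36569043-36569102, - strand): tctatctgtgacAATAAAccatggataatg
Cd40 on NM_011611 (chr2:164897085-164897144, + strand): atttagttcttgAATAAAagacacactcaa
Icosl on NM_015790 (chr10:77542211-77542270, + strand): acctaacaagggAATAAAtgtaagatgtgc
Havcr2 on NM_134250 (chr11:46294675-46294734, + strand): aatgttttaaagtAATAAAactgtactggc
The other genes had 1 probe each: Cd274 at chr19:29462363-29462422, Cd276 at chr9:58372744-58372805, Lgals9 at chr11:78776922-78776981 and Tnfsf9 at chr17:57247062-57247121.

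Transcripts of all 10 genes were detected in both kinds of macrophage sample, each well above background on all 12 arrays. None was called different between YFP+ and YFP- by limma at an adjusted p under 0.05 over all features tested (0 of 10 in either direction, where 1.75% of all 20370 features were called, 0.334% higher and 1.41% lower in YFP+). At an unadjusted p under 0.05 there were 2, Cd80 and Icosl, where 11.2% of all features had such a p. Differences were positive, that is higher in YFP+, for 8 of the 10, with a median of 0.30 on the log2 scale, against 47.2% positive, 52.8% negative and a median of -0.03 over all features. Cd80 is counted here by its upstream probe, and its other probe had a negative difference. With single arrays left out the median ran from 0.16 (without the YFP+ sample of tumour 3) to 0.43, at 0.19 without the YFP- sample of tumour 5 or that of tumour 6, and with arrays centred on their median it was 0.50. The number positive was 7 to 9. No gene of the 10 had groups that did not overlap (1.89% of all features, 0.427% with YFP+ above and 1.46% with YFP- above). Levels are given as log2 processed signal relative to each array's own 75th percentile, so that 0 is the brightness of that percentile and levels of different genes are not comparable.

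**Figure D1:**
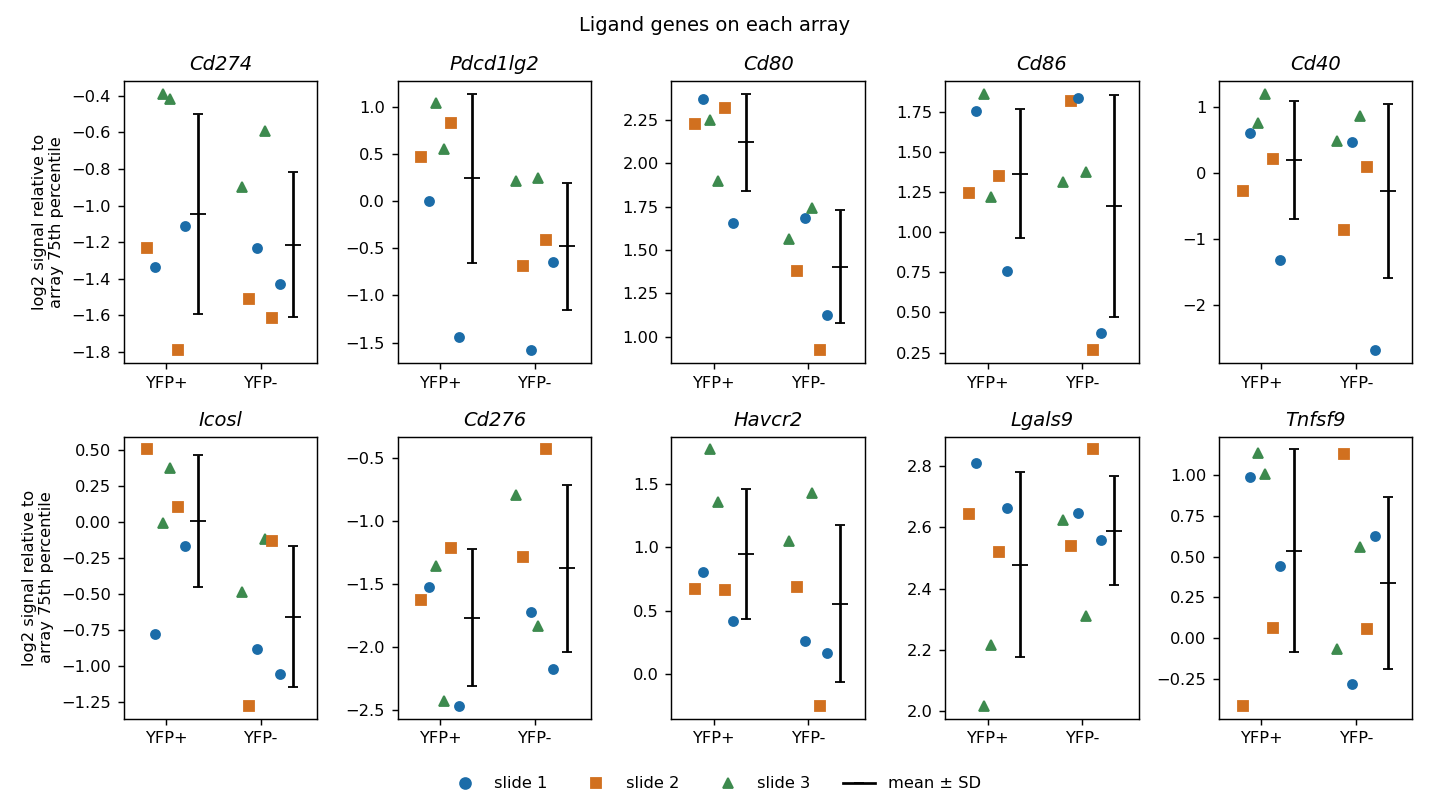
Each panel plots 1 gene, with YFP+ arrays left of YFP- arrays; the vertical axis is log2 signal relative to the array's 75th percentile, marker shape and colour give the slide, and bars are mean ± SD over 6 arrays. The groups overlap in every panel, most narrowly for Cd80, and the triangles of slide 3 lie high for Cd274 and Havcr2 in both groups.

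Of the ligands of CD28 and CTLA-4, Cd80 had the smallest p of the 10 genes and Cd86 showed no difference beyond the spread. The upstream Cd80 probe ran from 1.66 to 2.37 in YFP+ samples with a median of 2.24, against 0.92 to 1.74 with a median of 1.47 in YFP- samples. In 5 of 6 YFP+ samples it was above every YFP- sample, and the exception was the YFP+ sample of tumour 6. YFP+ averaged 2.12 ± 0.28, against 1.40 ± 0.32 for YFP- (SD over 6 arrays of each), a log2 difference of 0.72 or 1.64-fold (SE 0.20, 95% interval 0.27 to 1.16), and it did not pass (limma adjusted p = 0.13). All 6 tumour numbers gave a positive difference, which within slides was 0.61, 1.12 and 0.42. Cd86 ran from 0.76 to 1.86 in YFP+ with a median of 1.30, against 0.26 to 1.84 with a median of 1.34 in YFP-. Its lowest values were those of the YFP- samples of tumours 5 and 6. The Cd86 difference was 0.20 (SE 0.32, interval -0.50 to 0.90, limma adjusted p = 0.89), so a difference of the size seen for Cd80 lies inside its interval.

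The second Cd80 probe went the other way. Downstream, at base 1457, it ran from -1.11 to -0.48 in YFP+ with a median of -0.92, against -1.25 to 0.05 with a median of -0.75 in YFP-. Its difference was -0.22 (SE 0.24, interval -0.73 to 0.30, limma adjusted p = 0.82 over probes), and the YFP+ values all lay inside the YFP- range. Since both probes lie on the same arrays, the log2 signal of the upstream probe minus that of the downstream one can be compared between groups without any scaling. That within-array value ran from 2.66 to 3.43 in YFP+ with a median of 2.95, against 1.21 to 2.82 with a median of 2.18 in YFP-. Its mean was 0.93 higher in YFP+, with 5 of 6 tumour numbers in that direction. Within slides the difference was 1.16, 1.33 and 0.31. This comparison was set up after the disagreement had been seen and is given as a description. An exact permutation over 924 divisions of the arrays gave p = 0.0087. That p-value cannot count as support, because the pair of probes was looked at for its disagreement. Among 4166 genes with several passing probes, 38.6% had probes that differed in sign, and 17.6% had a range between probes at least as wide as that of Cd80.

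Pdcd1lg2, measured by its overlapping pair, gave nearly the same difference from both probes. The probe designed on NM_021396 ran from -1.44 to 1.05 in YFP+ with a median of 0.51, against -1.58 to 0.24 with a median of -0.53 in YFP-. In YFP+ a single sample, that of tumour 6, lay below the others, which ran from 0.00 upward. The difference was 0.72 (SE 0.43, interval -0.22 to 1.66, limma adjusted p = 0.60), and the AF142780 probe gave 0.69 (SE 0.43). Without the YFP+ sample of tumour 6 the NM_021396 value was 1.06 (limma adjusted p = 0.23), still not called. The within-array value between these probes had a median of 0.23 in YFP+ and 0.20 in YFP-.

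**Figure D2:**
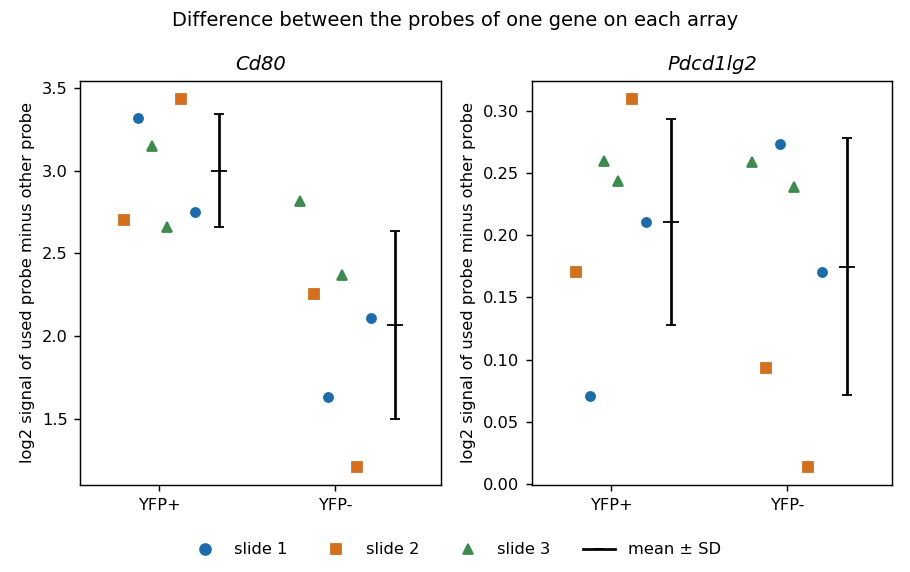
The vertical axis is, on each array, the log2 signal of the probe used for the gene minus that of its other probe; YFP+ arrays stand left of YFP- arrays, markers give the slide and bars are mean ± SD over 6 arrays. For Cd80 the median is 2.95 in YFP+ and 2.18 in YFP-, while for Pdcd1lg2 it is 0.23 in YFP+ and 0.20 in YFP-.

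Cd274, which encodes PD-L1, showed no difference beyond the spread. It ran from -1.79 to -0.39 in YFP+ with a median of -1.17, against -1.61 to -0.59 with a median of -1.33 in YFP-. The difference was 0.17 (SE 0.28, interval -0.44 to 0.78, limma adjusted p = 0.90). It was positive for 4 of 6 tumour numbers. Its 4 highest samples were YFP+ of tumours 3 and 4 and YFP- of tumours 1 and 4, which are the 4 arrays of slide 3. Mean Cd274 was -1.28, -1.54 and -0.57 on slides 1, 2 and 3, each holding 2 YFP+ and 2 YFP- arrays.

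Differences between slides were called for 3 members. An F test across slides with group in the model, added after the values were seen, called Cd274 (limma adjusted p = 0.0091), Havcr2 (0.016) and Pdcd1lg2 (0.035), 3 of 10 genes, where 20.6% of all features were called and 35.9% had an unadjusted p under 0.05. Havcr2 was higher on slide 3 (mean 1.40) than on slides 1 (0.41) and 2 (0.44), and Pdcd1lg2 averaged -0.92, 0.05 and 0.51 on slides 1, 2 and 3. Lgals9 was lowest on slide 3 (2.29, against 2.67 on slide 1 and 2.64 on slide 2) and was not called in that test (adjusted p = 0.20). The mean of 12 macrophage markers was also lower on slide 3, at 3.80 to 4.09, with 4.25 to 4.48 on slide 1 and 4.26 to 4.48 on slide 2. The part of these markers in the slide differences was not tested. Slide and tumour number overlapped in part: tumours 4, 5 and 6 had both samples on 1 slide, while tumours 1, 2 and 3 had theirs on different slides. For tumour 3, Cd274 was -0.39 in YFP+ on slide 3 and -1.23 in YFP- on slide 1. For tumour 1 it was -1.23 in YFP+ on slide 2 and -0.90 in YFP- on slide 3, so in both tumours the sample on slide 3 was the higher one.

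The inhibitory receptor gene Havcr2 and its ligand gene Lgals9 showed no difference beyond the spread. Havcr2 ran from 0.42 to 1.77 in YFP+ with a median of 0.74, against -0.25 to 1.43 with a median of 0.47 in YFP-, a difference of 0.39 (SE 0.32, interval -0.31 to 1.09, limma adjusted p = 0.75). It was positive within all slides, at 0.40, 0.45 and 0.32, and with slide as a block the SE was 0.18 and the adjusted p 0.31. Lgals9 ran from 2.02 to 2.81 in YFP+ with a median of 2.58, against 2.31 to 2.85 with a median of 2.59 in YFP-. Its interval was the narrowest of the 10, with a difference of -0.11 (SE 0.18, interval -0.51 to 0.29, limma adjusted p = 0.90). Centring arrays on their median turned the Lgals9 value to 0.10.

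Icosl, the ligand of ICOS, was higher in YFP+ at an unadjusted p and was not called. It ran from -0.78 to 0.50 in YFP+ with a median of 0.05, against -1.28 to -0.12 with a median of -0.69 in YFP-. In 4 of 6 YFP+ samples it was above every YFP- sample, and the exceptions were the YFP+ samples of tumours 2 and 6. The difference was 0.67 or 1.59-fold (SE 0.28, interval 0.06 to 1.27, limma adjusted p = 0.37). All 6 tumour numbers gave a positive difference, which within slides was 0.50, 1.01 and 0.49. With slide as a block the adjusted p was 0.17. The other Icosl probe, designed on the splice form AF394451 (chr10:77545941-77546001, + strand), was well above background on 2 of 6 YFP+ arrays and 0 of 6 YFP- arrays, and was not tested. The other Cd86 probe, on the predicted form XR_384517, was well above background on 0 of 6 YFP+ arrays and 1 of 6 YFP- arrays.

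Tnfsf9, which encodes the 4-1BB ligand, changed sign between slides. It ran from -0.42 to 1.14 in YFP+ with a median of 0.72, against -0.28 to 1.13 with a median of 0.31 in YFP-. Within slides 1, 2 and 3 the difference was 0.55, -0.77 and 0.83, and over all arrays 0.20 (SE 0.33, interval -0.51 to 0.91, limma adjusted p = 0.89). Cd276 was the member with the largest negative difference. It ran from -2.47 to -1.21 in YFP+ with a median of -1.58, against -2.18 to -0.43 with a median of -1.51 in YFP-, a difference of -0.39 (SE 0.34, interval -1.13 to 0.35, limma adjusted p = 0.76), negative in 5 of 6 tumour numbers.

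Cd40 had the widest interval of the 10. It ran from -1.31 to 1.19 in YFP+ with a median of 0.40, against -2.68 to 0.86 with a median of 0.28 in YFP-. The lowest value of each group was that of tumour 6, and the other samples lay between -0.27 and 1.19 in YFP+ and between -0.87 and 0.86 in YFP-. The difference was 0.47 (SE 0.60, interval -0.84 to 1.77, limma adjusted p = 0.86). With tumour number as a block its SE was 0.32 (limma adjusted p = 0.66). Without a block the difference was -0.01 without the YFP- sample of tumour 6 and 0.29 (SE 0.37) without both samples of that tumour. The same 2 samples had the lowest mean of 10 dendritic cell markers in their group, -1.63 in YFP+ and -2.42 in YFP-, where the others ran from -0.49 to 0.27 in YFP+ and from -1.07 to -0.40 in YFP-. The part of those markers in the Cd40 values was not tested.

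**Figure D3:**
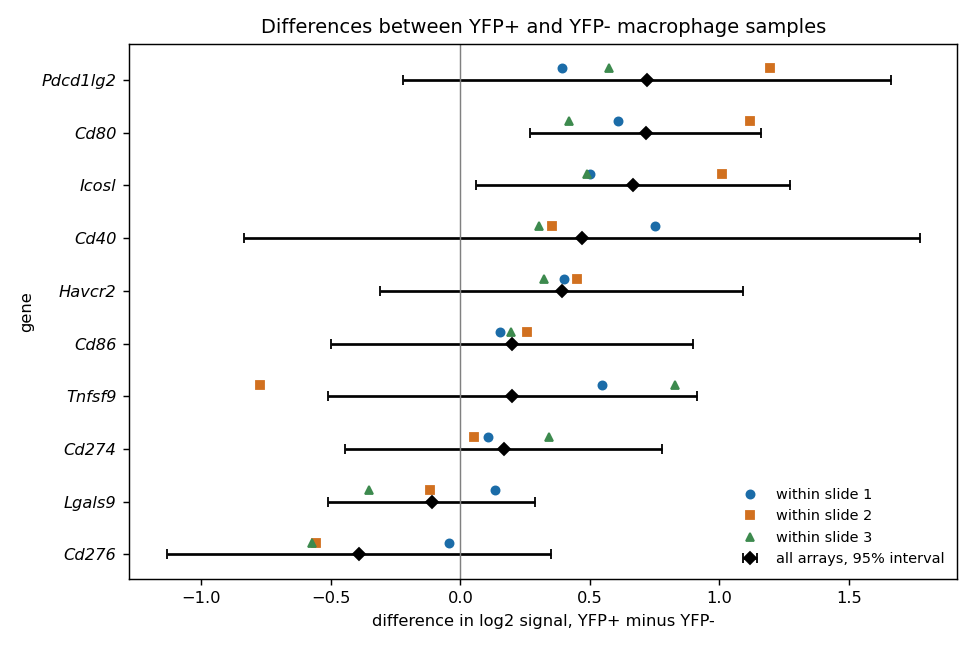
Black diamonds give the difference in log2 signal, YFP+ minus YFP-, with limma's 95% interval over 12 arrays, and coloured markers the difference within each slide of 2 YFP+ and 2 YFP- arrays. The intervals of Cd80 and Icosl lie above 0 before any adjustment, and the within-slide values of Tnfsf9 lie on both sides of 0.

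Around these genes, 4 lists of the same signalling system were read in the same fit. Of 23 other costimulatory and checkpoint ligands 19 were tested, of which 1 fell and 0 rose (over all features 1.41% fell and 0.334% rose). Their median difference was -0.05. The one that fell was Vtcn1, the B7 family inhibitor B7-H4, which is also made by epithelial cells. It ran from -7.43 to -4.53 in YFP+ with a median of -7.29, against -3.74 to -2.54 with a median of -3.00 in YFP-, and the groups did not overlap. Vtcn1 was well above background on 1 of 6 YFP+ arrays and 6 of 6 YFP- arrays, so it passed the filter mainly through the group where it is high, and its level in YFP+ is largely a bound. With dim arrays raised to the lowest signal well above background on that array, it was 3.84-fold lower in YFP+. That lowest signal was taken over all probes, so the fold is not a strict lower bound. The fit on the measured values, dim ones included, gave a difference of -3.59 (limma adjusted p = 0.0022), negative for all 6 tumour numbers. Next by p were the butyrophilin gene Btn1a1 (-0.64, limma adjusted p = 0.33), the adhesion ligand gene Cd48 (-0.23, 0.66) and the butyrophilin-like gene Btnl2 (-0.28, 0.70), of which Btn1a1 was also called with slide as a block.

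Signalling genes downstream of CD40 were mostly slightly higher in YFP+, with none called. All 19 were tested, 18 had positive differences, and the median was 0.31, against 47.2% positive and a median of -0.03 over all features. These genes share the arrays and their scaling, so their signs are not independent of each other. By limma 0 rose or fell, and across all other settings 16 to 19 were positive with a median between 0.19 and 0.51. The 0.51 came with arrays centred on their median, where the median of all features was 0.18. The smallest p were those of Map3k14, the kinase of the alternative NF-kB pathway (0.52, SE 0.19, adjusted p = 0.27), Birc3, a ubiquitin ligase of the receptor complex (0.46, SE 0.22, 0.46), and Chuk, an IkB kinase subunit (0.36, SE 0.18, 0.49). In the interferon gamma pathway, the main inducer of PD-L1, all 15 genes were tested and 0 were called, with 7 positive differences and a median of -0.05 that changed sign with the setting (-0.05 to 0.16). Jak2, a receptor kinase, was at 0.53 (limma adjusted p = 0.37), the transcription factor gene Irf1 at -0.24 (0.69) and the phosphatase gene Ptpn2 at 0.33 (0.71).

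The receptors that these ligands meet on T and NK cells were only partly measurable. Of 18 genes 11 were tested and 0 called, with a median of 0.25 that ranged from -0.17 to 0.45 over the settings. Pdcd1, Cd27, Lag3, Tigit, Cd96, Cd226 and Klrg1 did not pass the filter on dim probes. The smallest p were those of Tnfrsf9, the 4-1BB receptor gene (-0.56, SE 0.23, limma adjusted p = 0.35), Tnfrsf18, the GITR gene (0.53, SE 0.29, 0.54), and Cd244a, a receptor for CD48 (0.55, SE 0.30, 0.55).

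**Figure D4:**
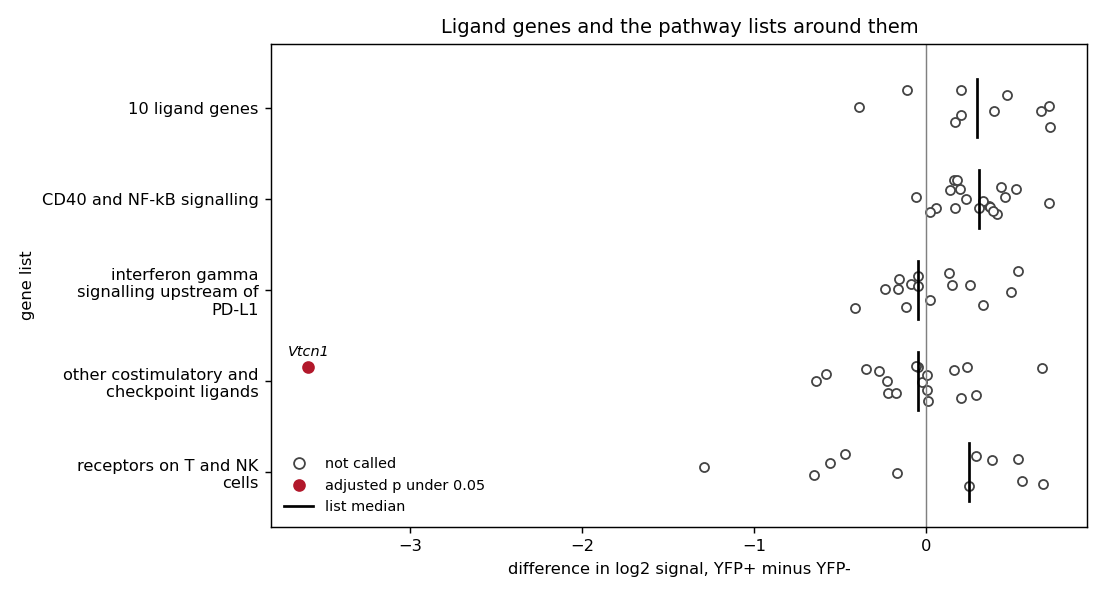
Each circle is a tested gene, placed by its difference in log2 signal, YFP+ minus YFP-; rows are the 10 genes and the 4 lists, black bars are medians, and filled circles passed an adjusted p under 0.05. Vtcn1 at -3.59 is the single filled circle. It was well above background on 1 of 6 YFP+ arrays, so its place rests on dim YFP+ values, and with dim arrays raised it would stand at -1.94.

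Among markers of other cells, epithelial and fibroblast genes fell in YFP+, and no gene of the other lists was called. Macrophage markers were bright in both, with all 12 above background on every array and 0 called, and their mean ran from 3.80 to 4.47 in YFP+ and from 3.96 to 4.48 in YFP-. Over all features 1.41% were called lower in YFP+ and 0.334% higher. Of 11 tested epithelial markers 4 fell in YFP+ and 0 rose, with a mean of -1.55 to -0.40 in YFP+, against -0.20 to 0.77 in YFP-. Of 12 fibroblast markers 8 fell and 0 rose, with -1.72 to -0.99 in YFP+, against -0.20 to 1.48 in YFP-. That count of 8 was 4 without the YFP- sample of tumour 2 or that of tumour 5, 5 without the YFP+ sample of tumour 3 or 4 or the YFP- sample of tumour 3, and 6 to 9 without any other single array. In bulk samples of this kind fewer cells of a type and less RNA per cell cannot be told apart. Dendritic cell markers (10 tested, 0 called) had a mean of -1.63 to 0.27 in YFP+, against -2.42 to -0.40 in YFP-. Of these markers 9 had positive differences and 1 negative, with a median of 0.65 that ranged from 0.40 to 0.94 over the settings. Means for B and plasma cell markers (9 tested, 0 called) were -1.77 to -0.15 in YFP+, against -2.50 to -0.73 in YFP-, with 6 positive and 3 negative differences and a median of 0.33. T and NK cell markers (8 tested, 0 called) were at -2.59 to -1.14 in YFP+, against -3.20 to -1.88 in YFP-, with Klrb1c not well above background on any array. Their differences were positive for 6 and negative for 2, with a median of 0.54. Neither endothelial (8 tested) nor neutrophil markers (7 tested) had a gene called, with neutrophil means of -1.63 to -0.46 in YFP+, against -1.27 to -0.13 in YFP-. B cells and dendritic cells also carry CD80, CD86, CD40 and ICOSL, epithelial cells and fibroblasts can carry B7-H3, and the part of these cells in the values above was not tested.

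**Figure D5:**
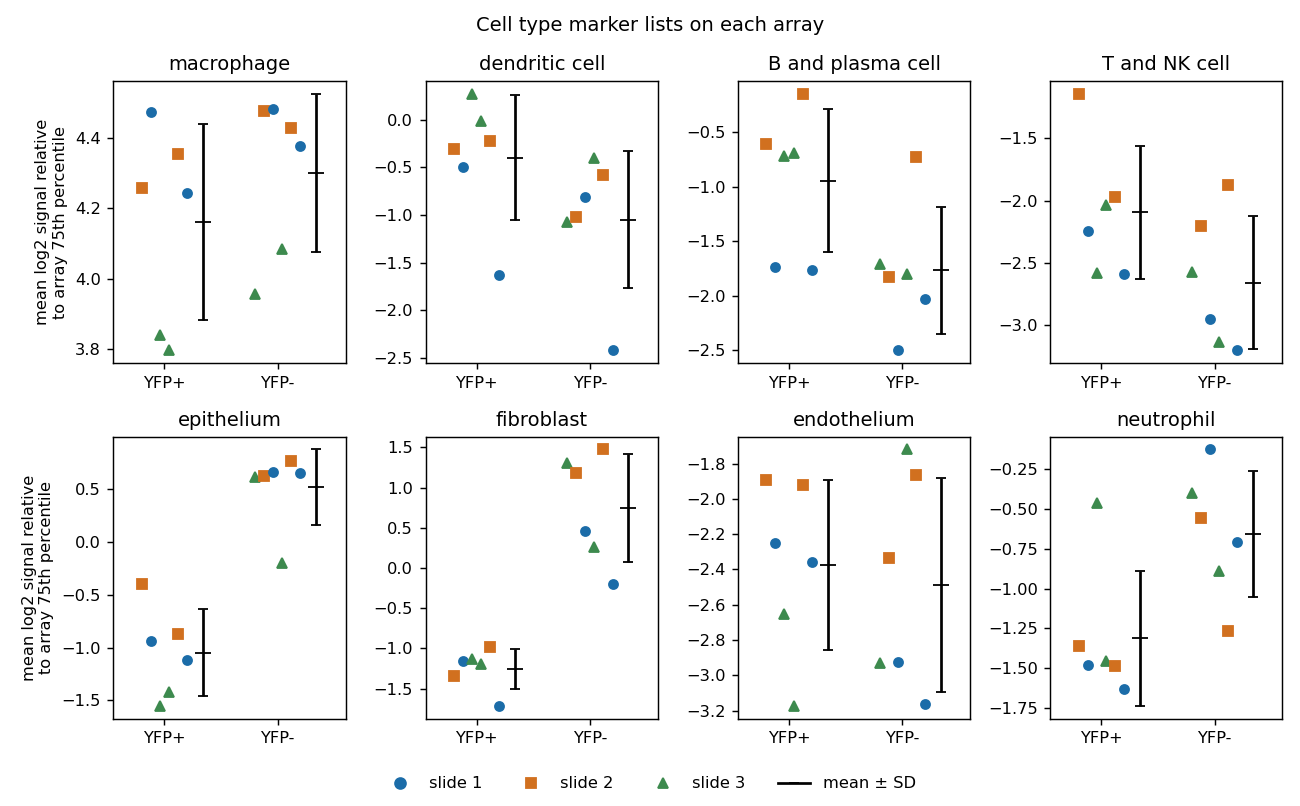
Each panel plots the mean log2 signal of a marker list relative to the array's 75th percentile, YFP+ arrays left of YFP- arrays, with slides as marker shapes and mean ± SD over 6 arrays. Epithelial and fibroblast lists do not overlap between groups, and the macrophage list is lower on slide 3 in both.

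Since no member was called, likeness in pattern was sought for the member with the smallest p, Cd80. Over the 12 arrays the named genes with the highest Pearson correlation with its upstream probe were Trnp1 (r = 0.95, Spearman rho = 0.93), Dad1, a subunit of the oligosaccharyltransferase (r = 0.94, rho = 0.94), and Trp53, the p53 gene (r = 0.89, rho = 0.93). These were picked as the highest of all tested genes, share the arrays and their scaling with Cd80, and are given as a description.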

How the data were processed

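Cy5-labelled cDNA of 12 samples was scanned on one-colour Agilent 4x44K arrays. The intensity values deposited by the authors are, per the file headers, red processed signals from Agilent Feature Extraction 11.5.1.1, with spatial and multiplicative detrending within each array and no scaling between arrays. The log2 values of the table the authors deposited (median 8.83 in every column, Spearman correlation of 0.9999 to 1 with the processed signals; 0 columns unused) served as an alternative. The 1377 control spots and spots flagged as outliers were left out, repeated spots averaged, and 35 of 39429 probes with a missing value dropped. No spot was saturated. Log2 signals were set relative to each array's 75th percentile (2121 to 3931 processed signal, brighter in YFP+). Kept were probes that 6 or more of the 12 arrays measured well above background, with 1 probe per gene, that of highest mean. RefSeq accessions updated gene names only.

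The comparison of YFP+ with YFP- used limma 3.58.1 under R 4.3.3, with lmFit, eBayes and no covariate, Benjamini-Hochberg adjusted over 20370 features at 0.05. SE and intervals are limma's, and the number of arrays limits the precision. The test was checked on simulated data with independent noise for each gene and no slide effect. That check cannot speak for data with slide differences such as those found here. Named genes are all members, all called genes of 4 pathway lists with the next 3 by p, and the 3 genes most like the member of smallest p. Members and lists were chosen with earlier results of these data known. Figures used Python 3.11.15 and matplotlib 3.10.9.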

Additional observations from a re-analysis of the deposited data

Results flagged for a closer look

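Within groups of 6, 6 of 44 sets of values had 1 sample apart from the rest, where chance alone gives about 1 in 20. The AF142780 probe of Pdcd1lg2 was at -1.65 in the YFP+ sample of tumour 6, with the others between -0.07 and 0.79. The dendritic cell marker mean was -2.42 in the YFP- sample of tumour 6, with the others between -1.07 and -0.40. The second Cd86 probe was at -3.27 in the YFP- sample of tumour 3, with the others between -6.92 and -6.59, and the second Icosl probe was at -5.62 in the YFP- sample of tumour 5, with the others between -7.04 and -6.59, both mostly below background. The epithelial marker mean was -0.20 in the YFP- sample of tumour 4, with the others between 0.61 and 0.77. The neutrophil marker mean was -0.46 in the YFP+ sample of tumour 3, with the others between -1.63 and -1.36.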

How the results depend on the processing

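Over 23 other settings, the 230 differences of the 10 genes kept their sign and stayed uncalled in 227 cases. Centring arrays on their median, which moved the median of all features to 0.18 from -0.03, called 1 member, Cd80 by its upstream probe (0.92, limma adjusted p = 0.047), gave Lgals9 0.10 and raised the share of called features that were higher in YFP+ to 33.5% from 19.1%. Otherwise Cd80 had an adjusted p from 0.060 with trend and robust variances to 0.70 with the mean of its probes (0.25). Leaving out the YFP- sample of tumour 6 turned Cd40 to -0.01. The Cd40 difference was -0.013 to 0.77 with 1 array left out. With 1 array left out 0 members were called, and the count over all features was 266 to 383 against 356. That count was 556 with slide as a block, 547 with normexp, 233 with probes above background on all 12 arrays and 562 at a threshold of 0.10. Of the pathway genes 2 were called with slide as a block, 1 when any single array was left out, and 0 with probes above background on all 12 arrays, which removes Vtcn1. Without both samples of tumour 6, a setting chosen after seeing the data, 271 features and 0 members were called. With the tumour number as a replicate block 296 features and 0 members were called. Samples of equal number had correlated deviations from -0.30 to 0.37, and 3 of 6 YFP+ samples matched their own number best. The correlations were 0.19 to 0.37 for tumours 4, 5 and 6, each on 1 slide, and -0.30 to 0.11 for tumours 1, 2 and 3, each on different slides. Since number and slide overlap in this way, these correlations cannot decide whether equal numbers are pairs. The numbers were not taken as pairs because the labels do not state that they are.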
